A study of Mus musculus with 2 samples.

Results

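Conventional type 1 dendritic cells (cDC1) of RM-1 mouse prostate tumors were selected on their own UMI counts, as the droplet barcodes with at least 1000 unique molecular identifiers (UMIs, tags that count captured transcripts), at most 20% mitochondrial UMIs, at least 2 UMIs of Clec9a and Xcr1 together, at least 10 of H2-Aa, H2-Ab1 and Cd74 together, at most 2 of C1qa, C1qb and C1qc, at most 1 of Cd3d, Cd3e and Cd3g, and no Ccr7 UMI. The rule found 139 barcodes among the 22524 with enough UMIs and few mitochondrial ones, 96 of 12253 in the control library and 43 of 10271 in the enzalutamide (ENZ) library. RM-1 is a mouse prostate cancer cell line, here labelled wild type. The methods for the animal models describe its injection into the prostate of C57BL/6 mice. The control group is a vehicle-treated tumor and the ENZ group a tumor treated with ENZ, an antiandrogen drug, and its route and dose in the sequenced mouse were not given in the sources used here. The tumors came from a pair of mice, 1 library each, after an enrichment of immune cells and CD45 staining, and the ages of the mice were not given in the sources used here. With 1 library per group there is no replicate spread and no test: the 95% intervals below cover counting error only, and drug, mouse, tumor and library preparation cannot be told apart.

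cDC1 take up material from dead cells and present its peptides on MHC class I to CD8 T cells, a route called cross-presentation. They depend on the transcription factors Irf8, Batf3 and Id2 and on the growth factor receptor Flt3, and in tumors they are known for priming cytotoxic T cells. CLEC9A binds actin exposed by dead cells, and XCR1 is the receptor for the chemokine XCL1 that T and NK cells release. Dendritic cells that mature lose much of this program and gain CCR7, which steers them to lymph nodes, and the rule asks for no Ccr7 UMI.

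The identity of the set rests on the genes of the gate, Clec9a (chr6:129408862-129424763, plus strand) and Xcr1 (chr9:123852315-123862029, minus strand, both GRCm38 in the GENCODE annotation). Their upstream sequences are shown because these genes define the cells, and those of Hspa1a and Isg15 because both genes are described below with their gene groups. Each is the 250 bases before the RefSeq start (GRCm38.p6), read 5′ to 3′ on the gene's strand, with matches to searched motifs in capitals: Clec9a at chr6:129408612-129408861, Xcr1 at chr9:123862030-123862279 (minus), Hspa1a at chr17:34972157-34972406 (minus) and Isg15 at chr4:156200819-156201068 (minus).
Clec9a: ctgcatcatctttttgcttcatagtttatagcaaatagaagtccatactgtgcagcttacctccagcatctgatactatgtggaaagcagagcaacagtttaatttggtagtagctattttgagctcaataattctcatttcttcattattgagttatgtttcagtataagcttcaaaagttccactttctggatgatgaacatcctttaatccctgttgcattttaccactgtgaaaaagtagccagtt
Xcr1: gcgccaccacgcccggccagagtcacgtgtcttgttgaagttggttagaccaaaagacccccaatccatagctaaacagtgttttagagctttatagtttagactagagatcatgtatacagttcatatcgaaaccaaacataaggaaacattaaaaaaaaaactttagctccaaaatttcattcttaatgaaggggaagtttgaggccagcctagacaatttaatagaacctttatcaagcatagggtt
Hspa1a: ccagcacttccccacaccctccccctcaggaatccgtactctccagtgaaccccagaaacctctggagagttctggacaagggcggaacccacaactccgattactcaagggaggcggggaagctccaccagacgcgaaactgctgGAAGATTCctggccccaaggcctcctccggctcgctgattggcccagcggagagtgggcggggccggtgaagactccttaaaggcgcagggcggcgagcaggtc
Isg15: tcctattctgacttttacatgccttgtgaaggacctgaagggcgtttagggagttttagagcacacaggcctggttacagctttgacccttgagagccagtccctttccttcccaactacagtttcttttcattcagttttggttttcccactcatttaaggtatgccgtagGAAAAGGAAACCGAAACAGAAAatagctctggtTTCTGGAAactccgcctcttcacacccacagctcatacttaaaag
The motifs, on both strands, were a heat shock element (3 units that alternate between GAA and TTC, with 2 free bases between neighbours, starting with either) and the shorter pair of such units inside it (GAANNTTC or TTCNNGAA), an interferon regulatory factor (IRF) element (GAAA repeated after 2 or 3 free bases) and an AP-1 site (TGANTCA). The capitals in Hspa1a mark a pair of heat shock units, and those in Isg15 mark 3 overlapping IRF elements and, nearer the start, a pair of heat shock units. No searched motif matched in the Clec9a or Xcr1 window. Of the 27025 genes with a window of this length, 14.5% held the pair of heat shock units, 0.514% the full heat shock element, 6.01% an IRF element and 7.82% an AP-1 site. Among the genes of the lists used below, the pair occurred in 6 of 7 heat shock genes with a window, and the IRF element in 17 of 26 interferon-stimulated genes against 3 of 21 cDC1 identity genes. These matches describe letters in the window and show no binding.

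More members held Clec9a than Xcr1. In the control library 59 members held both genes, 35 held Clec9a alone and 2 held Xcr1 alone, and in the ENZ library the numbers were 27, 12 and 4. At the threshold itself, 35 control and 16 ENZ members held exactly 2 UMIs of the pair, while 77 control and 32 ENZ barcodes that met every other limit held 1 and stayed outside. Members had a median of 10584 UMIs and 2832 genes in control and 9578 UMIs and 2790 genes in ENZ, and summed to 1238133 and 439803 UMIs. No barcode was shared between the members of the libraries, whereas 39 barcodes of the whole set were.

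**Figure D1:**
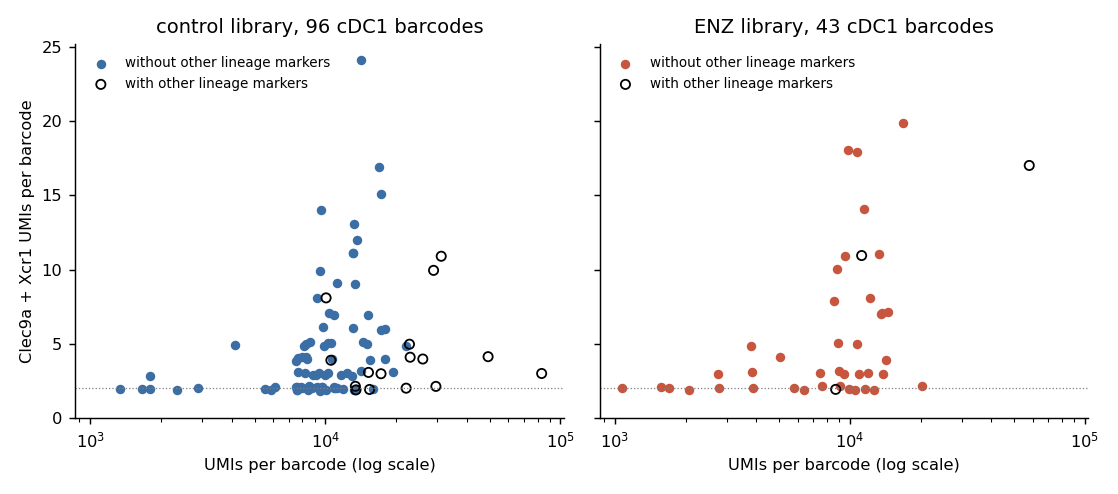
Clec9a plus Xcr1 UMIs per barcode (y axis, jittered slightly) against UMIs per barcode (x axis, log scale) for the 96 control and 43 ENZ members, with open circles for members that carry markers of another lineage. The dotted line is the limit of 2 UMIs, and every member above 25000 UMIs is an open circle.

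Some members also carried RNA of other cells, which must be known before the libraries are compared. At least 2 UMIs of keratins (Krt8, Krt18), B cell genes (Cd79a, Ms4a1), NK cell genes (Ncr1, Gzma, Prf1) or collagens (Col1a1, Col1a2), or at least 5 of the neutrophil genes S100a8 and S100a9, were found in 16 control members, which held 33.2% of the control members' UMIs, and in 3 ENZ members with 17.7%. All members above 25000 UMIs were among them, 6 in control and 1 in ENZ, and the ENZ barcode of 57977 UMIs held 55 keratin UMIs. Results are therefore also given for the restricted members, 80 in control and 40 in ENZ, without such markers. A single ENZ barcode of 5796 UMIs carried 9 Siglech UMIs, a plasmacytoid dendritic cell marker, with 2 Clec9a UMIs and none of Xcr1.

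cDC1 made up 0.783% of control barcodes (Clopper-Pearson 95% interval 0.635 to 0.956) and 0.419% of ENZ barcodes (0.303 to 0.564). Among barcodes with a UMI of the leukocyte gene Ptprc the shares were 1.35% (1.09 to 1.65) and 0.749% (0.528 to 1.03). Relative to the other dendritic cell gates the order was the same but the values were close. cDC1 were 30.9% (25.8 to 36.3) of the barcodes in 3 dendritic cell gates in control and 28.7% (21.6 to 36.6) in ENZ. The other gates were cDC2-like barcodes and barcodes with Ccr7 and Fscn1. The cDC2-like gate also carried macrophage and monocyte RNA, as given below, so these are shares of the gates and not of dendritic cells alone. The immune enrichment and CD45 staining can set shares of all barcodes, and their part was not tested.

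Genes that the rule did not use followed the label in most members. The comparison was with cDC2-like barcodes (178 control, 82 ENZ), named after type 2 conventional dendritic cells (cDC2). They were gated on Cd209a, Clec10a and Mgl2 with no Clec9a or Xcr1 UMI and otherwise under the same limits. Their cDC2 genes summed to 1063 CPM in control and 1388 CPM in ENZ. Their macrophage genes summed to 2262 and 2396 CPM and their monocyte genes to 1469 and 2303 CPM. Ratios over these barcodes are therefore not ratios over cDC2 alone. A gene was counted as higher or lower when its ratio of CPM (UMIs per 1000000, from UMIs summed over barcodes) passed 1.5-fold with an interval that left out 1 in both libraries, among genes with a mean of at least 50 CPM. Of 3182 such genes 8.89% were higher and 10.3% lower in cDC1. Of the 20 cDC1 identity genes that could be compared, 18 were higher and none lower, with a median log2 ratio of 3.06 in control and 2.80 in ENZ, and the 2 others were Itgax and Nfil3. The cDC1 identity UMIs per 10000 lay above the 95th percentile of cDC2-like barcodes in 91 of 96 control and 40 of 43 ENZ members. The lowest, an ENZ barcode of 3787 UMIs, held 5 Xcr1 UMIs and 1 identity UMI. Since the gate chose barcodes for cDC1 genes, these ratios and counts describe the set and test nothing.

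The transcription factors came first. Irf8 stood at 609 CPM in control and 955 CPM in ENZ members against 85.3 and 77.7 CPM in cDC2-like barcodes. Batf3 stood at 96.1 and 123 CPM against 22.0 and 24.1 CPM. Id2 was closer to the other subset, at 166 and 346 CPM against 95.7 and 205 CPM.

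Of 7 costimulation and checkpoint genes that could be compared with cDC2-like barcodes, 2 were higher in cDC1 (Btla and Havcr2) and 1 lower (Cd80), with a median log2 ratio of 0.02 in control and 0.47 in ENZ. Itgae, the integrin chain CD103, was 34.6-fold higher than in cDC2-like barcodes in control and 15.3-fold in ENZ. Cadm1, an adhesion molecule, was 24.0-fold and 18.5-fold higher, and the inhibitory receptor Btla 24.8-fold and 25.1-fold. Tlr3, which senses double-stranded RNA, stood at 67.8 and 86.4 CPM against 1.10 and 2.68 CPM, with a mean under the minimum for a call. Havcr2, which encodes the checkpoint receptor TIM-3, was 4.18-fold and 4.39-fold higher and stood at 414 CPM in control and 412 CPM in ENZ members.

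**Figure D2:**
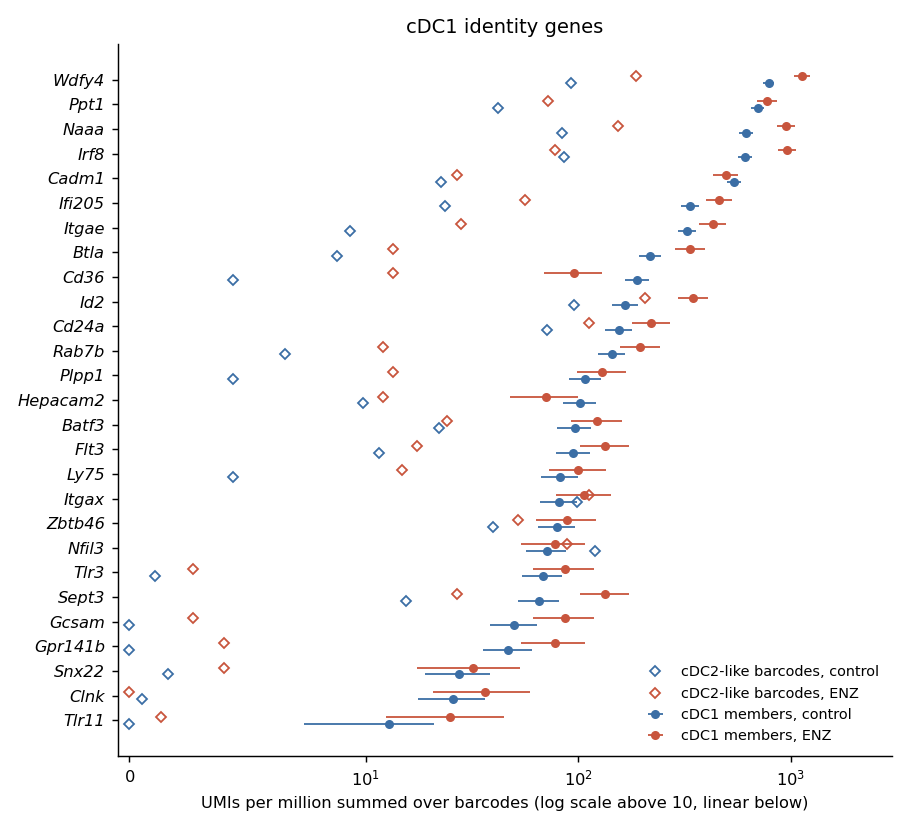
CPM of the 27 cDC1 identity genes (x axis, log scale above 10 and linear below) in cDC1 members (filled points with 95% Poisson intervals) and cDC2-like barcodes (open diamonds) of each library. Filled points lie right of the diamonds for nearly all genes, and Itgax and Nfil3 overlap them.

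Of 12 cross-presentation genes 6 were higher than in cDC2-like barcodes and 1 lower (Cybb), with a median log2 ratio of 0.50 in control and 0.33 in ENZ. Wdfy4, needed for cross-presentation of cell-associated antigen, was 8.50-fold higher than in cDC2-like barcodes in control and 6.04-fold in ENZ. Rab43, a small GTPase of the same route, was 3.94-fold and 5.23-fold higher, and Rab7b 21.8-fold and 16.2-fold. In the class I list 5 of 16 genes were higher and none lower, led by the immunoproteasome subunit Psmb9 (5.10-fold and 3.85-fold) and the peptide transporter Tap1 (3.16-fold and 2.81-fold). The class I heavy chain H2-K1 lay below the cDC2-like level, at 0.804 of it in control and 0.649 in ENZ, past the limit in the ENZ library alone. In the class II list outside the gate 1 of 8 genes was higher, Ciita, the master regulator of class II genes (1.77-fold and 2.66-fold), and 3 were lower, H2-DMb2, Lgmn and the lysosomal protease gene Ctss (0.409 and 0.411).

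By the rule for named genes, ranked on the less extreme of the libraries' interval bounds, the highest over cDC2-like barcodes were Ccser1, Txndc16, Btla, Cadm1, Itgae, Dnase1l3, Rab7b, Ppt1, Gm36723 and Adam19. Ccser1 stood at 367 and 418 CPM against 3.85 and 4.02 CPM. Txndc16 owed 29.3% of its control UMIs and 57.7% of its ENZ UMIs to a single barcode, so its level does not describe the set. The lowest were Ccl24, Mrc1, Ifitm1, S100a4, Chil3, Ccl9, AA467197, Clec4n, Itgam and Ccl6, which include chemokines and myeloid surface genes. Itgam, the integrin chain CD11b, stood at 16.2 and 15.9 CPM in cDC1 against 167 and 312 CPM.

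Of 8 maturation genes that could be compared with cDC2-like barcodes, 1 was higher in cDC1, the surface protein gene Cd83 (2.76-fold and 1.91-fold), and 4 were lower. The checkpoint ligand gene Cd274 was 3.34-fold higher in control and 1.39-fold in ENZ, past the limit in control alone. Fscn1 (27.5 and 11.4 CPM) and Ccl22 (1.62 CPM in control and 0 of 439803 UMIs in ENZ), which mature dendritic cells express strongly, were low. Against Ccr7 barcodes (37 control, 25 ENZ), 11.2% of 3258 genes were higher in cDC1 and 13.9% lower in both libraries. The highest in cDC1 were Txndc16, Naaa, Plbd1, Wdfy4 and Mpeg1, and the lowest Ccl22, Ccl5, Fabp5, Mreg and Cacnb3. Naaa, a lysosomal amidase, was 44.8-fold higher in control and 39.0-fold in ENZ.

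Shares of members with a UMI were compared at equal depth. After thinning each barcode to 1000 UMIs, an Irf8 UMI was present in 45.8% of control and 51.2% of ENZ members, against 5.84% and 3.32% of gated T cells. Without thinning the shares in members were 90.6% and 86.0%, and in the T cells, of median depth 4376 and 4779 UMIs, 24.8% and 15.2%. A Wdfy4 UMI was present in 46.9% of thinned control members (36.6 to 57.3) and 74.4% of ENZ members (58.8 to 86.5). Without thinning the Wdfy4 shares were 99.0% and 100%, and its CPM ratio of ENZ over control was not called. In thinned T cells the Wdfy4 shares were 0.487% and 0.35%. In thinned cDC2-like barcodes they were 14.6% and 17.1% for Wdfy4 and 9.55% and 4.88% for Irf8. Thinned Ccr7 barcodes had 8.11% and 0 of 25 for Wdfy4, and 13.5% and 20% for Irf8.

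Markers of other lineages were summed to see what else the set holds. The 12 cDC2 genes summed to 132 CPM in control and 116 CPM in ENZ members, against 1063 and 1388 CPM in cDC2-like barcodes. The 14 macrophage genes summed to 539 and 318 CPM, and to 570 and 285 CPM in restricted members, against 2262 and 2396 CPM in cDC2-like barcodes. Lyz2 was the most abundant, and C1qa, which the gate limits, stood at 10.5 and 9.10 CPM in members. The 8 monocyte genes summed to 808 and 775 CPM in members, and to 537 and 741 CPM in restricted members, against 1469 and 2303 CPM in cDC2-like barcodes. The restriction used no gene of the macrophage or monocyte lists, so it does not remove such RNA. The 7 fibroblast genes summed to 989 CPM in control and 77.3 CPM in ENZ members, led by Col3a1, and to 29.0 and 52.5 CPM in restricted members. The 7 neutrophil genes summed to 490 and 43.2 CPM, and to 56.9 and 49.7 CPM in restricted members. T cell genes summed to 20.2 and 20.5 CPM and B cell genes to 42.8 and 45.5 CPM. The part of this RNA in the differences below was not tested beyond the values in restricted members.

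Members were not uniform. Among restricted members, those with 2 or more Xcr1 UMIs (25 control, 15 ENZ) had more Irf8 than those with none (27 and 12). Irf8 did not follow the Xcr1 count throughout, since in ENZ the members with 1 Xcr1 UMI had 493 CPM (383 to 626), the lowest of the 3 classes. In control the Irf8 level was 1210 CPM (interval 1086 to 1344) against 525 CPM (438 to 624), and in ENZ 1515 CPM (1323 to 1727) against 1036 CPM (820 to 1291), where the barcode with Siglech gave 18 of the 79 Irf8 UMIs of the class with none. Tlr3 stood at 181 CPM against 8.20 CPM in control and 162 CPM against 39.3 CPM in ENZ. Ciita stood at 429 CPM against 86.1 CPM in control and 365 CPM against 157 CPM in ENZ. Cadm1 was detected in members without an Xcr1 UMI at 750 CPM in control and 433 CPM in ENZ, and Itgae at 377 and 354 CPM. Both were highest with 2 or more Xcr1 UMIs, Cadm1 at 893 and 805 CPM and Itgae at 554 and 636 CPM. Id2 stood at 77.9 CPM with none against 432 CPM in control, and at 275 against 561 CPM in ENZ. Batf3 stood at 57.4 against 178 CPM and 131 against 176 CPM. Hepacam2 was among the genes that went the other way, at 156 against 108 CPM and 157 against 67.6 CPM. Depth differed between the classes, with median UMIs of 8865, 9925 and 11186 in control members with 0, 1 and 2 or more Xcr1 UMIs, and of 5408.5, 10558 and 9859 in ENZ members. Xcr1 is a gene of the gate, so this is a description, and the part of depth was not tested.

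**Figure D3:**
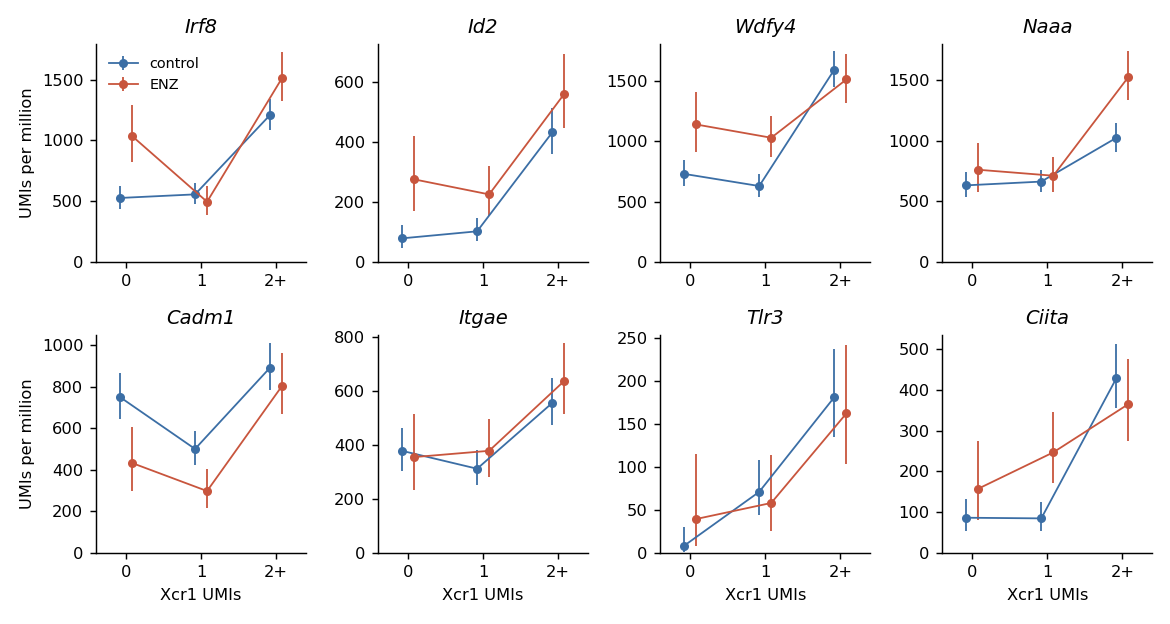
CPM with 95% Poisson intervals (y axis) of 8 genes in restricted members with 0, 1 and 2 or more Xcr1 UMIs (x axis), control in blue and ENZ in red. In both libraries all 8 genes are highest in the class with 2 or more Xcr1 UMIs.

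Dividing cells were looked for with 11 mitosis genes. At least 3 of their UMIs were present in 31 of 96 control members (32.3%, 23.1 to 42.6) and 8 of 43 ENZ members (18.6%, 8.39 to 33.4). At 1000 UMIs per barcode the order turned, with 4.17% in control (1.15 to 10.3) and 6.98% in ENZ (1.46 to 19.1), with intervals that overlap, so no difference was detectable at this depth. Summed over all members the 11 genes stood at 661 CPM in control and 1185 CPM in ENZ, and over restricted members at 544 and 539 CPM. The ENZ barcode of 57977 UMIs alone held 324 of their UMIs.

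The libraries were compared gene by gene in the members. Of 3058 genes 10.2% were at least 1.5-fold higher in ENZ and 6.67% at least 1.5-fold lower with an interval that left out 1, and over restricted members 8.3% and 6.42% of 2928. The median log2 ratio of ENZ over control was 0.05 over all members and 0.04 over restricted members. These calls compare 2 libraries and are not counts of genes changed by ENZ. Counts of called list genes below are to be read beside these shares.

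Heat shock genes, chaperones that refold damaged proteins, were lower in the ENZ library. All 10 lay below 1 in members and in restricted members, and 5 passed the 1.5-fold limit in each set. In the ENZ library 1 barcode held 19.2% of the restricted members' Hspa1a UMIs. The median log2 ratio was -0.56 over members and -0.65 over restricted members, against -0.09 in cDC2-like barcodes. Hspa1a, whose promoter is printed above, stood at 3802 CPM in control and 1721 CPM in ENZ members, a ratio of 0.453 (0.419 to 0.489), and at 0.392 (0.360 to 0.427) in restricted members. Dnajb1 had a ratio of 0.331 (0.25 to 0.432), Hsph1 0.520 (0.475 to 0.569), Hspa1b 0.532 (0.478 to 0.590) and Hsp90aa1 0.650 (0.592 to 0.713). Hspa1a and Hspa1b are near-identical copies, so reads may have been split between them. Hspa8 and Hsp90ab1, the constitutive family members, had ratios of 0.866 and 0.907.

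The level varied widely from barcode to barcode. Heat shock UMIs per 10000 ranged from 36.0 to 530 with a median of 203 in the restricted control members, and from 36.2 to 342 with a median of 79.7 in the restricted ENZ members. The ranges overlapped, and the upper quartile of the ENZ members, 184, lay below the control median. In cDC2-like barcodes the medians were 198 in control and 151 in ENZ, and of the 10 genes only Dnajb1 was called lower in ENZ there, where 5.84% of 3204 genes were called lower and 10.3% higher. Whether the difference between the subsets exceeds mouse-to-mouse spread was not tested. When barcodes with a single Clec9a or Xcr1 UMI were admitted, 4 of the 5 calls were lost, at log2 ratios of -0.36 for Hspa1a, -0.078 for Hspa1b, -0.32 for Hsp90aa1 and -0.55 for Hsph1, while Dnajb1 stayed past the limit at -1.03. The call of Hsp90aa1 was also lost without doublets called by Scrublet, at -0.55, and with the mean of each member's CPM, at -0.58.

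**Figure D4:**
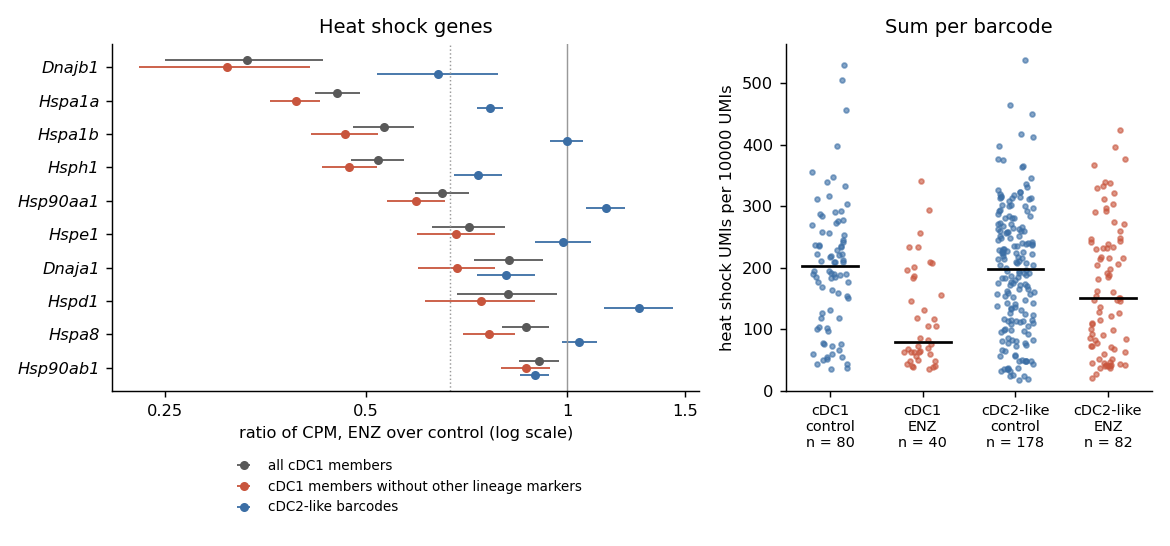
Left, ratio of ENZ over control (x axis, log scale) of 10 heat shock genes with 95% counting intervals in all members, restricted members and cDC2-like barcodes, with 1 (solid line) and 1.5-fold lower (dotted line) marked. Right, heat shock UMIs per 10000 UMIs of each barcode (points) with medians (bars), where the ENZ median of restricted members is 79.7 against 203 in control.

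Of 7 tested maturation genes none was called over all members, and over restricted members 2 were called lower in ENZ and none higher. The costimulation and checkpoint list had 1 of 7 called higher (Btla) and none lower over members. Over restricted members it had none higher and 1 lower. Shares over all genes were 10.2% higher and 6.67% lower over members, and 8.3% and 6.42% over restricted members. In the restricted members Cd83 stood at 589 CPM in control and 370 CPM in ENZ (ratio 0.628, 0.515 to 0.762), and Cd274, which encodes PD-L1, at 316 and 180 CPM (0.569, 0.427 to 0.749). Over all members their ratios were 0.714 and 0.677 and were not called. Cd86, a costimulatory ligand, had a ratio of 1.32 (1.07 to 1.62) over members and 1.33 (1.05 to 1.67) over restricted members, below the limit. Of 4 tested chemokines and cytokines 1 was called higher and 1 lower over members, and over restricted members 1 of 5 was called higher and 2 lower. Ccl4, a chemokine that attracts T and myeloid cells, was the one called higher, with a ratio of 1.87 (1.39 to 2.50). Il1b, an inflammatory cytokine, had a ratio of 0.359 (0.273 to 0.465) over members and 0.434 over restricted members. The transcription factor Irf1 had a ratio of 0.440 (0.271 to 0.687). The chemokine Cxcl10, at 57.3 CPM in control and 11.4 CPM in ENZ, and the interleukin-12 subunit Il12b, with 39 UMIs in control and 1 in ENZ, lay under the minimum of 50 CPM and were not tested. Of the Il12b UMIs in the restricted control members 89.7% came from 1 barcode. Cxcl9 was tested over restricted members alone, where it was called lower with 49.3% of its control UMIs in 1 barcode.

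Of 4 tested receptors for dead cells 1 was called lower in ENZ, Cd36, and none higher. The pattern recognition list had 1 of 6 called higher, none lower and a median log2 ratio of 0.35. Since 10.2% of all genes were called higher and 6.67% lower, 1 call does not set so short a list apart. Over restricted members none of the 6 was called and the median was 0.13. Cd36, a scavenger receptor that takes up lipids and apoptotic cells, stood at 189 CPM in control and 95.5 CPM in ENZ members, a ratio of 0.505 (0.355 to 0.704), with a UMI in 67.7% of control and 44.2% of ENZ members before thinning and 15.6% and 11.6% after it. With at least 1 UMI of each of Clec9a and Xcr1 asked for, its log2 ratio was -0.55 and not called. In cDC2-like barcodes Cd36 lay under the minimum and was not tested, at 4.40 and 13.4 CPM with a UMI in 7 of 178 and 8 of 82 barcodes. Of 8 tested lipid and cholesterol genes 1 was called higher and 2 lower. Cd14, the co-receptor for lipopolysaccharide, had a ratio of 0.184 (0.0865 to 0.348), and the lipid carrier Apoe 0.395 (0.260 to 0.580). Cd14 and Apoe are also macrophage genes, and the part of macrophage RNA was not tested. With barcodes of a single Clec9a or Xcr1 UMI admitted, the log2 ratio was 0.036 for Cd14 and 0.037 for Il1b, so neither was lower in ENZ there.

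Of 24 tested cDC1 identity genes 7 were called higher in ENZ, 1 lower (Cd36), and 21 had a ratio above 1. Among all 3058 tested genes 10.2% were called higher and 6.67% lower. The list was also higher in ENZ in cDC2-like barcodes. There 5 of 8 tested genes were called higher and none lower, against 10.3% and 5.84% of all genes. The list's median log2 ratio was 0.72 there, against 0.43 in members and 0.20 in restricted members. Over restricted members 2 were called higher and 2 lower (Cd36 and Hepacam2), against 8.3% and 6.42% of all genes. These counts are near the shares over all genes. The other 5 of the 7, Irf8, Naaa, Gcsam, Btla and Gpr141b, were not called. The 2 still called higher were Id2 and Sept3 (1.81, 1.24 to 2.63). Id2 stood at 209 CPM in control and 373 CPM in ENZ (ratio 1.78, 1.41 to 2.25, against 2.14 in cDC2-like barcodes). Irf8 had a ratio of 1.57 (1.39 to 1.77) over members and 1.33 (1.16 to 1.51) over restricted members, below the limit. Xcr1, which the gate used, stood at 115 CPM in control and 239 CPM in ENZ.

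Interferon-stimulated genes split. Of 11 tested 4 were called higher and 2 lower in ENZ over members, against 10.2% and 6.67% of all genes. Over restricted members 4 of 10 were called higher and 1 lower, against 8.3% and 6.42% of all genes. Their median log2 ratio there was 0.34. In the restricted members Isg15, a ubiquitin-like antiviral protein with the IRF elements shown above, stood at 33.9 CPM in control and 116 CPM in ENZ, but 1 barcode held 45.2% of the ENZ UMIs. Over all members its ratio was 1.68 (1.17 to 2.4), and with barcodes of a single Clec9a or Xcr1 UMI admitted its log2 ratio was 0.21 and not called. Irf7, which amplifies interferon responses, stood at 25.4 and 99.5 CPM (ratio 3.92, 2.22 to 7.06, against 2.42 over all members) with at most 28.6% of the UMIs of a library in 1 barcode. Stat2, which carries interferon signals, had a ratio of 1.97 (1.18 to 3.27). The receptor chains differed in direction, with Ifngr1 at 1.6 (1.19 to 2.16) and Ifnar2 at 0.564 (0.332 to 0.918).

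Antigen presentation was nearly level. Over restricted members none of the 9 tested class II genes was called and their median log2 ratio was 0.07, against 1 call (Ciita) and 0.36 over all members, and of 16 class I genes 1 was called, the peptide transporter Tap2 (1.6, 1.09 to 2.31). The gate genes H2-Aa, H2-Ab1 and Cd74, which the rule used, had ratios of 0.841, 0.907 and 0.887 in restricted members. Summed with Clec9a and Xcr1 they stood at 24447 CPM in control and 21735 CPM in ENZ there, and at 19726 and 19593 CPM over all members. In restricted members the cross-presentation list had no call among 10 genes, and Wdfy4 had a ratio of 1.26 (1.12 to 1.41).

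**Figure D5:**
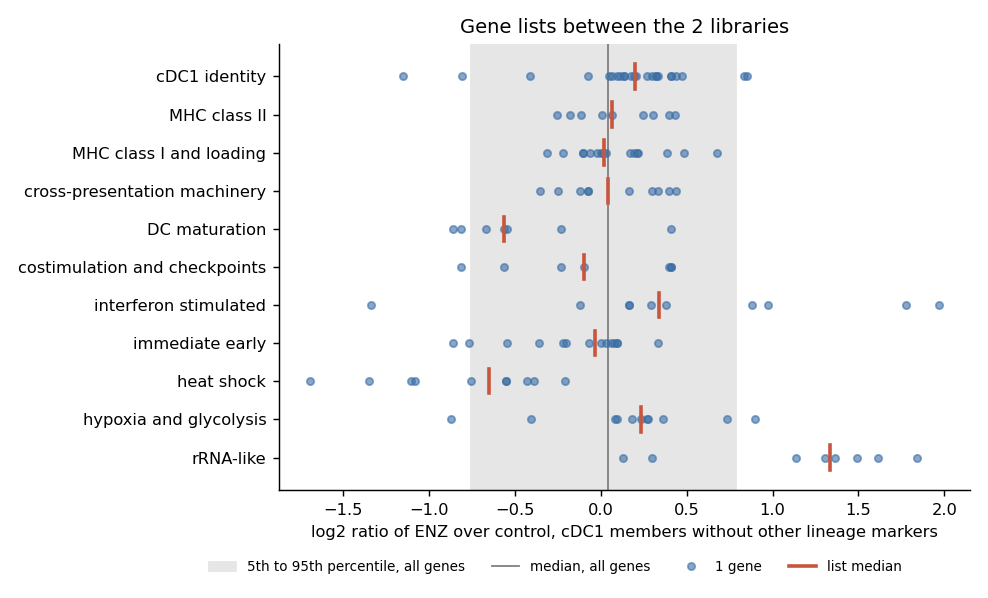
Log2 ratio of ENZ over control (x axis) of each tested gene of 11 lists in restricted members, with the list median in red, the median of all 2928 genes as a line and their 5th to 95th percentiles shaded. The heat shock median lies at -0.65 and the rRNA-like median at 1.33.

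The genes with the highest ENZ over control ratio by the naming rule were Gm19951, Gm42418, Hmmr, Mef2c, Lars2, Mapre2, Cmss1, Gpr141, Top2a and Prc1. Gm42418, Lars2, Cmss1 and Gm19951 belong to a list of 8 loci that gather ribosomal RNA-like reads. That list summed to 21457 CPM in control and 59875 CPM in ENZ members, and to 27708 and 74048 CPM in cDC2-like barcodes, so it was higher in ENZ in both subsets. With these loci and the mitochondrial and ribosomal protein genes left out of the denominator, the log2 ratio of Hspa1a was -1.12. Hmmr, Top2a and Prc1 are mitosis genes, and 1 barcode held 77.8% of the ENZ members' Prc1 UMIs. Over restricted members the Prc1 ratio was 1.22 (0.447 to 3.06) and the Hmmr ratio 2.28 (0.853 to 6.11), while Top2a was still called, with a ratio of 1.78 (1.26 to 2.50) against 3.08 over all members. Without doublets called by Scrublet the log2 ratio of Top2a was 0.44 and not called.

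Mef2c, a transcription factor of the immune and muscle lineages, Mapre2, a microtubule-binding protein, and the orphan receptor Gpr141 were also called higher over restricted members. In restricted members Mef2c stood at 65.3 CPM in control and 227 CPM in ENZ (ratio 3.47, 2.43 to 4.98), with 28.0% of the ENZ UMIs in 1 barcode. Mapre2 had a ratio of 3.87 (2.52 to 6.02) and Gpr141 of 5.63 (3.02 to 11.0). In cDC2-like barcodes their ratios were 1.27, 1.05 and 1.11, and none was called. Fkbp5, a chaperone that steroid hormones induce, had a ratio of 2.43 (1.67 to 3.52) over members and 3.69 (2.21 to 6.27) over restricted members, and was called higher in cDC2-like barcodes too, at 2.01.

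The genes with the lowest ratio by the same rule were S100a9, Col3a1, Fn1, Col1a1, Sparc, Glis3, Spp1, S100a8, Hspb1 and Timp1. Several mark neutrophils, fibroblasts or matrix. Col3a1 had a ratio of 0.0868 over members and S100a9 of 0.0375. A single control barcode held 84.2% of the control members' Col3a1 UMIs. The largest share in 1 barcode was 80.6% for Col1a1, 66.4% for Fn1 and 57.4% for Sparc, so the differences of these genes do not describe the set. For S100a8 and S100a9 the largest share was lower, 44.9% and 31.7%. S100a8 UMIs were found in 16 control and 6 ENZ members and S100a9 UMIs in 30 and 5. The restricted members were chosen by S100a8, S100a9, Col1a1 and Col1a2 UMIs among others, so the levels of these genes there follow from that choice, and the source of the differences was not tested. Ranked over restricted members, the lowest were Adck1, Fam20b, Gm13822, Cd14, Dnajb1, Hspa1a, Ccdc167, Phlda1, 1600010M07Rik and Dennd5b. Adck1 owed 87.1% of its restricted control UMIs to 1 barcode, 1600010M07Rik 61.0% and Fam20b 52.7%, while Phlda1, an early response gene, had 6.3% in 1 barcode and a ratio of 0.374 (0.283 to 0.487). The highest were Slfn5, Gpr141, Gm42418, Gm19951, Wwox, Cers6, Mapre2, Lars2, Mef2c and Cmss1.

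Camk1d and Cd44, the genes at the centre of the study, were read in the same way. Camk1d stood at 1217 CPM in control and 2735 CPM in ENZ members, a ratio of 2.25 (2.08 to 2.43), and of 1.93 (1.78 to 2.1) in restricted members. It was higher in ENZ in cDC2-like barcodes as well (2.81). Barcodes of 10 to 100 UMIs, which hold mostly free RNA, had 6391 CPM of Camk1d in control and 6652 CPM in ENZ, more than the members. The subtraction of free RNA used the mean of these barcodes, 0.343 Camk1d UMIs per barcode in control and 0.453 in ENZ. The free RNA in droplets with cells was not measured, so its part in the difference between the libraries was not tested. Cd44 had a ratio of 0.852 (0.694 to 1.04) in members and 0.678 (0.531 to 0.858) in restricted members and was not called.

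The direction of the hypoxia and glycolysis list turned with the set of members. Over all members 1 of 11 genes lay above 1 and the median log2 ratio was -0.18, and over restricted members 9 of 11 did and the median was 0.23. Pfkp, a phosphofructokinase of glycolysis, stood at 313 CPM in control and 600 CPM in ENZ members (ratio 1.92, 1.63 to 2.25), and Hk2, a hexokinase, at 116 and 54.6 CPM (0.472, 0.293 to 0.731). Over restricted members their ratios were 1.86 (1.56 to 2.21) and 0.545 (0.295 to 0.951), and 2 of the 11 genes were called higher and 1 lower, against 1 and 1 over all members. The immediate early list had 4 of 15 genes called lower over members and 2 of 14 over restricted members. The 2 were Jun (0.588, 0.445 to 0.769) and Klf6 (0.550, 0.443 to 0.677). Shares over all genes were 10.2% higher and 6.67% lower over members, and 8.3% and 6.42% over restricted members.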

How the data were processed

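Droplet-based 3' single-cell RNA-seq was made from RM-1 tumors of 1 control and 1 ENZ mouse. The authors deposited unfiltered UMI counts per gene and barcode. The submitters' processing notes name Cell Ranger 2.1.1 and mm10, whereas the matrix headers give 7.2.0. The libraries held 170830346 and 162030149 UMIs. The members and gene lists were chosen with earlier results of these data known.

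UMIs were summed over members per library and scaled to CPM with exact Poisson intervals. Ratios had exact conditional binomial intervals and shares Clopper-Pearson intervals. These cover counting error only, and not the spread between barcodes. A gene was tested at a mean of 50 CPM outside the gate genes and called at 1.5-fold with a 95% interval that left out 1. Thinning drew 1000 UMIs per barcode. Named genes had a UMI in at least 10% of the members of the higher library and were the 10 highest and 10 lowest between libraries and over cDC2-like barcodes, and the 5 highest and 5 lowest over Ccr7 barcodes, ranked by the interval bound nearer 1. The ranking over restricted members was added after seeing the data. Mitochondrial and ribosomal protein genes were not named. Any gene of the lists could be named as well. Clec7a, Mb21d1, Mx1 and Mx2 were not analysed here. Some list genes are not reported here.

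No doublets were removed. Scrublet (scanpy 1.11.5) found a threshold for the ENZ library alone, and its use on both libraries was an alternative, beside other limits of the gate, other scalings, other filters and a subtraction of free RNA. Promoters came from RefSeq. Python 3.11.15, numpy 2.4.6, scipy 1.17.1, pandas 2.3.3 and matplotlib 3.10.9 were used.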

Additional observations from a re-analysis of the deposited data

Results flagged for a closer look

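Gm13822 was called in opposite directions in the subsets: its log2 ratio of ENZ over control was -2.08 in cDC1 members, -2.36 in restricted members and 1.53 in cDC2-like barcodes. The difference was not tested, and 61.2% of its UMIs in the restricted control members came from 1 barcode.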

How the results depend on the processing

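The sign of the heat shock median held under every alternative run, from -0.74 with a gate of at least 3 Clec9a and Xcr1 UMIs to -0.26 with at least 1. At least 3 UMIs gave member shares of 0.498% in control and 0.263% in ENZ. At least 1 UMI of each gene gave 0.482% and 0.263%, with medians of -0.036 for immediate early and 1.18 for rRNA-like genes. At least 1 UMI of the pair gave 1.41% and 0.730%, a class II median of -0.053, and log2 ratios of 0.12 for Spp1, 0.036 for Cd14 and 0.037 for Il1b, which turned. Without doublets called by Scrublet the cell cycle median was -0.083 and Prc1 turned to -0.091. Over restricted members the medians were 0.068 for class II, -0.035 for immediate early and 0.23 for hypoxia genes, and Col3a1 (0.71), Fn1 (0.36), Col1a1 (2.61) and S100a8 (0.34) turned. The mean of each member's CPM gave 0.062 for class II and 1.65 for rRNA-like genes. A minimum of 100 CPM left 127 genes higher and 87 lower in ENZ, and no filter 740 and 577. Without thinning, UMIs were found in 90.6% and 86.0% of control and ENZ members for Irf8, 95.8% and 90.7% for Naaa, and 91.7% and 79.1% for Itgae. Thinned shares of dividing members were 4.17% and 6.98%. The causes were not tested. The gate around the threshold, the 43 ENZ members and barcodes holding much of a gene's UMIs limit what can be read. No paired analysis was possible because only a single library was made from each of the groups.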
